A study of Mus musculus with 12 samples.

Results

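Mitochondrial ribosomal protein genes are nuclear genes whose products build the mitoribosome, the ribosome inside mitochondria. They were taken as every symbol starting with Mrpl or Mrps followed by a digit, which gave 76 genes of the 23352 gene symbols in the files. Of these, 47 carry a large-subunit number (Mrpl) and 29 a small-subunit number (Mrps), and all 76 passed the filter on low values. They were measured by poly(A) RNA-seq in regulatory T cells (Tregs), the Foxp3-expressing CD4 T cells that restrain immune responses, sorted from the spleens and lymph nodes of C57BL/6 females. The 4 groups were Ezh2-KO CD62Llo, Ezh2-KO CD62Lhi, Ezh2-HET CD62Llo and Ezh2-HET CD62Lhi Tregs, where CD62L is a homing receptor that is high on resting cells and low on cells of an activated type. KO mice were Foxp3YFP-Cre/Foxp3WT;Ezh2fl/fl and HET mice were Foxp3YFP-Cre/Foxp3WT;Ezh2fl/+, so the controls also carried the Cre and 1 floxed allele of Ezh2, which encodes a histone H3 lysine methyltransferase. Foxp3 is X-linked and Cre is driven by it, so in these heterozygous females Cre can act only in the Tregs that use the YFP-Cre allele; a gate on YFP and the ages are not given in the labels. Each group had 3 libraries, and HET CD62Lhi replicate 3, which the labels mark as removed for low read counts, was left out of the fits, leaving 11 libraries. In that library 5 of the 76 genes had a value above 0.

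The mitoribosome translates the few messages that mitochondrial DNA encodes, which specify core subunits of the respiratory chain and of ATP synthase. Its proteins are made in the cytosol and imported, and they are joined to ribosomal RNAs made inside the organelle; some have a bacterial counterpart and some exist only in mitochondria. T cells are known to raise mitochondrial mass and respiration on activation, and Tregs to rely on respiration.

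The sequences around the starts are shown first for members on which the results turn. Mrps6 shares a first exon with a neighbour, Mrpl30 has an opposed neighbour close by, Mrpl42 was called between fractions in HET and has no such neighbour, and Mrpl46 and Mrps11 are opposed members. Each runs 5′ to 3′ on the gene's strand in mouse build GRCm38.p6, from RefSeq's promoter table, cut to the stretch outside every GENCODE M21 exon. Capitals mark the GC box, GGGCGG or its reverse complement CCGCCC, which transcription factors of the Sp family bind.
Mrps6 (chr16:92058086-92058269, plus strand): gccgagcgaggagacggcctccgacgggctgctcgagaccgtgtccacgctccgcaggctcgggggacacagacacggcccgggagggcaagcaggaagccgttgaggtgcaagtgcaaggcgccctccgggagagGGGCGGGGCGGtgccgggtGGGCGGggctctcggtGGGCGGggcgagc
Mrpl30 (chr1:37890412-37890476, plus strand): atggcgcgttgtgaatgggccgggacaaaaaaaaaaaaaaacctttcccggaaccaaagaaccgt
Mrpl42 (chr10:95501950-95502199, minus strand): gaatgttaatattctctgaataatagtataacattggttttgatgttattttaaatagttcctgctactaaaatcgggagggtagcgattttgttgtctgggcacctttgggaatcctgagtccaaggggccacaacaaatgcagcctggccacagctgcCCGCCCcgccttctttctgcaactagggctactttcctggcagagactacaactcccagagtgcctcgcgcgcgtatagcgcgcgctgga
The last is the whole gap between the opposed RefSeq starts of Mrpl46, which reads leftward, and Mrps11, which reads rightward. The final bases of it lie in a GENCODE exon of Mrps11.
Mrpl46 and Mrps11 (chr7:78783090-78783130, plus strand): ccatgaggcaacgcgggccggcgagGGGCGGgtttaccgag
Upstream of Mrps6 the GC box occurred 4 times, counting overlaps. It occurred once upstream of Mrpl42, once in the gap between Mrpl46 and Mrps11, and not in the 65 bases between Mitd1 and Mrpl30.

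Over all members, 5 short motifs were searched on both strands of the 250 bases upstream of each RefSeq start, and 67 of the 76 genes were found in the table. The ETS core CCGGAAG, bound by factors such as GABP, a regulator of nuclear genes for mitochondrial proteins, occurred in 17 of the 67 genes (25.4%), against 17% of 8382 tested genes and 6.91% of all 32851 promoters. GCATGCG, the core of the site of NRF1, another such regulator, occurred in 8 genes (11.9%), against 6.6% of tested genes and 3.02% of all promoters. Those genes were Mrpl9, Mrpl10, Mrpl17, Mrpl22, Mrpl32, Mrpl33, Mrpl39 and Mrps18b. The GC box GGGCGG was found in 32 genes (47.8%), against 63.5% of tested genes and 32.7% of all promoters. CACGTG, the E-box of Myc and related factors, occurred in 5 genes (7.46%), against 10.1% and 6.02%. ATGGCGG, the core of the YY1 site, occurred in 1 gene, Mrps11 (1.49%), against 4.9% and 2.21%. A match is a description of these letters in this window.

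Expression is given as FPKM, the fragments per kilobase of transcript and per library size that the authors deposited for each library. The mean over the 11 libraries ran from 3.59 FPKM for Mrpl17 to 241 FPKM for Mrpl52, a 67.2-fold span, with a median of 28.3 FPKM against 12.1 FPKM over all 11431 tested genes. Only Mrpl52 and Mrps21, at 155 FPKM, averaged above 100, while 66 members lay between 10 and 100 and 8 below 10. Mrpl52, a large-subunit protein found only in mitochondria, had 215, 230 and 239 FPKM in KO CD62Llo, 230, 199 and 217 in KO CD62Lhi, 277, 290 and 235 in HET CD62Llo, and 241 and 284 in HET CD62Lhi. It was the highest member in all 11 libraries. Mrps21, Mrpl33 at 99.2 FPKM and Mrps16 at 92.1 FPKM followed, and Mrpl33 and Mrps16 differed by less than the SD of Mrpl33 in KO CD62Llo (100 ± 10.1 and 93.4 ± 9.61 FPKM). At the low end Mrpl35 and Mrpl1 changed places, with 5.16 and 5.91 FPKM in KO CD62Llo and 5.12 and 4.13 FPKM in HET CD62Lhi.

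By role, the 28 large-subunit members with a bacterial counterpart had a median level of 32.8 FPKM and the 21 large-subunit members specific to mitochondria 20.1 FPKM. The 16 small-subunit members with a bacterial counterpart had a median of 29.8 FPKM and the 10 specific to mitochondria 26.2 FPKM. Mrps30 and Mrps18a, named for the small subunit, were counted with the large one, where their proteins sit. Mrps36 was placed in none, since its product is now known as a subunit of the oxoglutarate dehydrogenase complex; it averaged 27.9 FPKM. The levels varied with transcript length: Spearman's rho between level and median GENCODE transcript length was -0.45 over the 76 genes, which share the libraries. The FPKM lay above the upper end of the confidence interval that the files give beside it for 35 to 57 of the 76 members by library. The count of 35 was in KO CD62Llo replicate 1, and every other fitted library had at least 49. The mean FPKM was above the middle of that interval by 1.92 times for both Mrpl52 and Mrps21, and by 1.16 times in the median member. Levels ranked by the interval's middle gave nearly the same order (rho = 0.98).

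**Figure D1:**
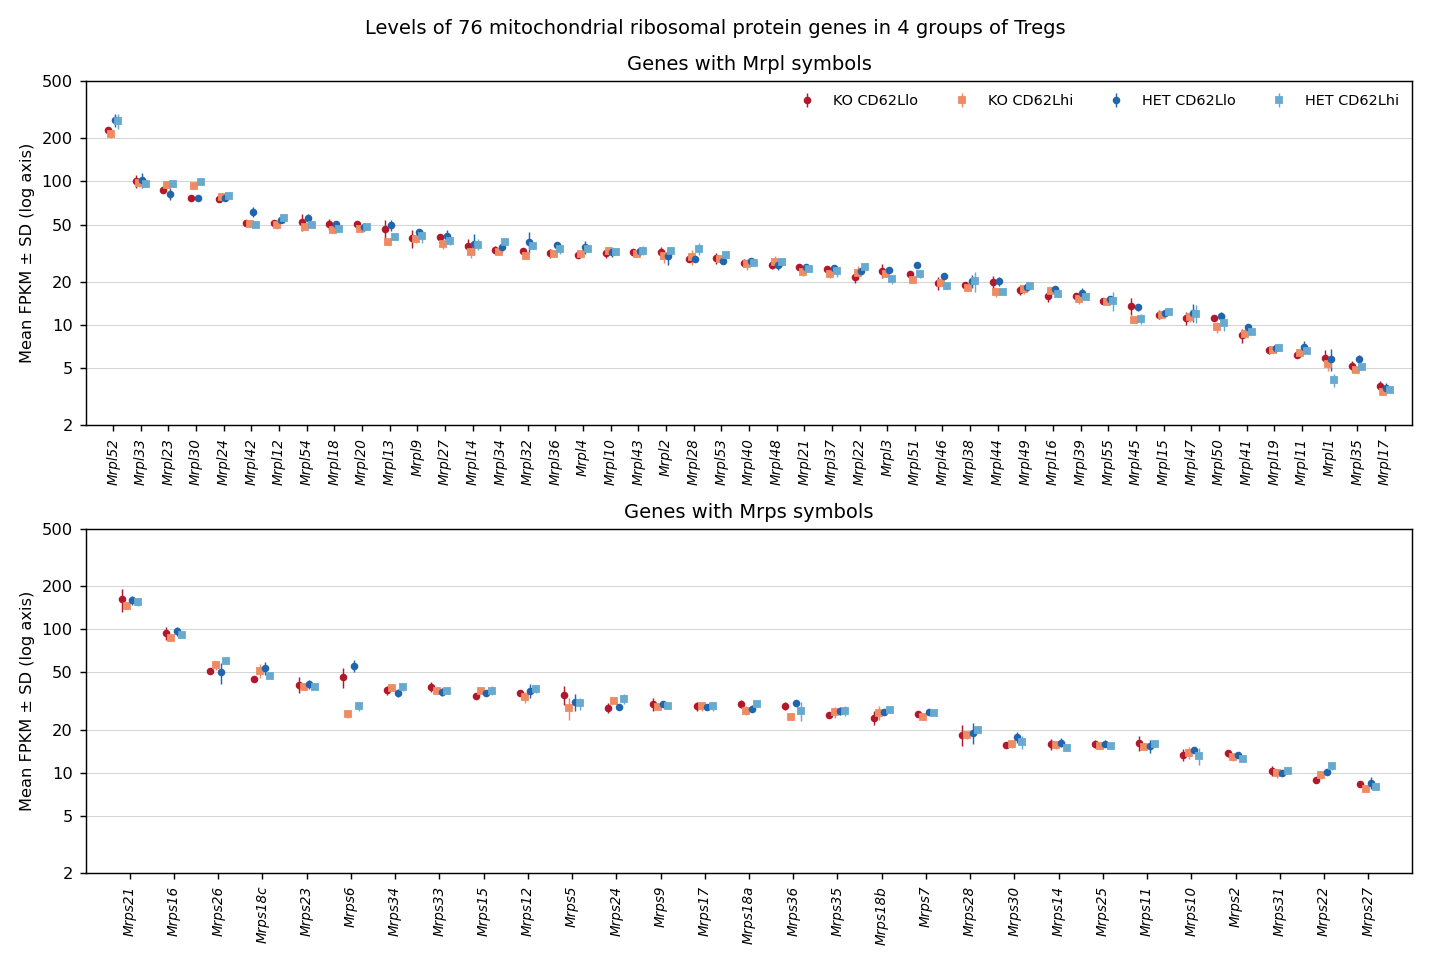
Mean FPKM (log axis) of the 47 Mrpl genes (top) and the 29 Mrps genes (bottom) in KO CD62Llo, KO CD62Lhi, HET CD62Llo and HET CD62Lhi Tregs, ordered by the mean over 11 libraries; bars are SDs over 3 libraries, or 2 for HET CD62Lhi. The 4 groups lie close together for most genes, and Mrps6 stands out, with both CD62Llo means above both CD62Lhi means.

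The order of the levels was nearly the same in all 4 groups, with Spearman's rho of 0.974 to 0.995 over the 76 members in the 6 pairs of groups. In the median member the highest group mean was 1.11 times the lowest, against 1.17 times over the 9020 tested genes that reached at least the lowest member's level. That ratio was below 1.5 in 75 of 76 members (98.7%), against 85.3% of those genes. Mrps6 was the member above it, at 2.17. The residual SD between libraries of a group, on the log2(FPKM + 1) scale, had a median of 0.0923 over members and 0.0982 over tested genes in the same range of levels, so the members' replicate error was close to that of other genes. It was lowest for Mrpl30 (0.0364) and highest for Mrps5 (0.21).

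The summed FPKM of the 76 genes was 2500, 2782 and 2589 in KO CD62Llo, 2550, 2567 and 2499 in KO CD62Lhi, 2793, 2739 and 2683 in HET CD62Llo, and 2646 and 2729 in HET CD62Lhi. On this scale the fractions overlapped within each genotype. As a percent of each library's total FPKM they did not, with 0.420, 0.457 and 0.437 in KO CD62Llo against 0.407, 0.411 and 0.392 in KO CD62Lhi, and 0.467, 0.473 and 0.471 in HET CD62Llo against 0.408 and 0.421 in HET CD62Lhi. Cytosolic ribosomal protein genes, which build the ribosomes outside mitochondria, summed to between 161910 and 169156 FPKM in KO CD62Llo and between 192321 and 196318 in KO CD62Lhi. Their sums in HET were 144476 to 165625 in CD62Llo and 204075 and 211551 in CD62Lhi, so CD62Llo was below CD62Lhi in both genotypes without overlap. The mitochondrial sum as a percent of the cytosolic one was 1.54, 1.64 and 1.58 in KO CD62Llo against 1.31, 1.31 and 1.30 in KO CD62Lhi. In HET it was 1.69, 1.85 and 1.86 in CD62Llo against 1.25 and 1.34 in CD62Lhi. As a percent of the summed FPKM of nuclear-encoded oxidative phosphorylation genes, the mitoribosome sum stayed between 23.8 and 25.4 in every library. Since the total FPKM itself differed between fractions, from 569609 to 608404 in CD62Llo and from 625384 to 648694 in CD62Lhi, the sums depend on the scale. In bulk libraries, fewer cells of a type and less RNA per cell cannot be told apart.

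**Figure D2:**
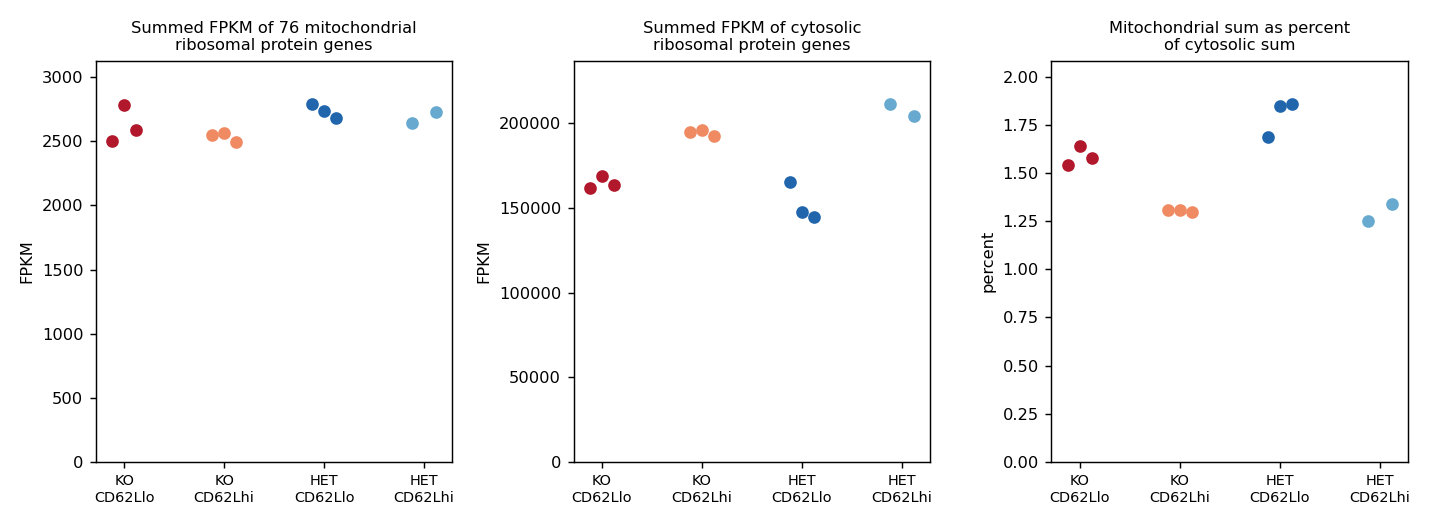
Summed FPKM of the 76 mitochondrial ribosomal protein genes (left), of cytosolic ribosomal protein genes (middle), and the first as a percent of the second (right); each point is 1 library of KO CD62Llo, KO CD62Lhi, HET CD62Llo or HET CD62Lhi Tregs, and axes start at 0. The mitochondrial sums overlap between fractions, from 2499 to 2793 FPKM over the 11 libraries, while the percent is between 1.54 and 1.86 in CD62Llo and between 1.25 and 1.34 in CD62Lhi.

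The libraries were checked against their labels before the comparisons. Ezh2 had 12.5, 16.8 and 14.4 FPKM in KO CD62Llo, 9.15, 11.5 and 11 in KO CD62Lhi, 18.2, 17.8 and 20.5 in HET CD62Llo, and 12.7 and 12.5 in HET CD62Lhi, a value that includes reads from exons outside the floxed part. Foxp3 was between 75.9 and 96.8 FPKM in all 11 libraries. Summed markers of several other cell types differed between the fractions. The summed FPKM of 4 B cell markers was 23.6 to 55.7 in KO CD62Llo against 68.3 to 116 in KO CD62Lhi, and 17.4 to 28.9 in HET CD62Llo against 69.9 to 85.0 in HET CD62Lhi. The sum of 4 CD8 T and NK cell markers was 12.3 to 18.9 in KO CD62Llo against 29.1 to 35.7 in KO CD62Lhi, and 14.7 to 17.0 in HET CD62Llo against 38.5 to 43.1 in HET CD62Lhi. Cd8b1 made up most of that sum, and Klrb1c, an NK cell receptor gene on the list, went the other way, with 1.03 to 1.65 FPKM in KO CD62Llo against 0.266 to 0.317 in KO CD62Lhi, and 1.53 to 3.97 in HET CD62Llo against 0.315 to 0.395 in HET CD62Lhi. The sum of 3 plasma cell markers, mostly Xbp1, was 36.6 to 43.7 in KO CD62Llo against 31.6 to 33.3 in KO CD62Lhi, and 40.1 to 48.6 in HET CD62Llo against 29.9 to 37.0 in HET CD62Lhi. The sum of 5 myeloid markers, mostly Lyz2, was 28.8 to 241 in KO CD62Llo against 10.9 to 16.3 in KO CD62Lhi. It was 44.0 to 92.2 in HET CD62Llo against 11.2 to 21.6 in HET CD62Lhi. Csf1r, Itgam, Emr1 and Cd14, also on that list, overlapped between fractions in both genotypes. Of these 16 markers only Ncr1 was at 0, in 1 library. The sum of 4 red cell markers overlapped between fractions, at 3.94 to 156 in KO CD62Llo and 8.34 to 296 in KO CD62Lhi. In HET it was 16.9 to 183 in CD62Llo and 108 to 127 in CD62Lhi. The sum of 4 stroma and endothelium markers, mostly Pecam1, was 51.0 to 56.2 in KO CD62Llo against 68.4 to 78.6 in KO CD62Lhi. In HET it was 37.4 to 40.8 in CD62Llo against 67.3 to 72.1 in CD62Lhi. Col1a1 and Col1a2, also on that list, went the other way without overlap in both genotypes, at low levels. Col1a1 had 0.144 to 0.171 FPKM in KO CD62Llo against 0.0134 to 0.0475 in KO CD62Lhi. In HET, Col1a1 had 0.179 to 0.32 in CD62Llo against 0.0226 to 0.0453 in CD62Lhi. Cdh5 overlapped between fractions in both genotypes. The part of any of these cells in the fraction results was not tested.

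CD62Llo Tregs were compared with CD62Lhi Tregs within each genotype, which asks how these genes differ between activated-type and resting Tregs. On the deposited FPKM scale few members changed. In KO, Mrps6 rose and Mrpl30 fell in CD62Llo Tregs, 2 of 76 members, while 16.2% of all tested genes passed the threshold of 0.05 on limma's Benjamini-Hochberg adjusted p. In HET, Mrps6, Mrpl42 and Mrpl51 rose and Mrpl30 fell, 4 of 76 members, against 27.7% of all tested genes. By direction, the background was 11.9% higher and 4.26% lower in KO, and 18.8% higher and 8.88% lower in HET. At an unadjusted p under 0.05, 9 members passed in KO (11.8%, against 29.3% of all genes) and 13 in HET (17.1%, against 39.3%). The libraries of both fractions did not overlap for 16 members in KO (background 34.8%), of which 11 were higher, and for 23 members in HET (background 53.9%), of which 15 were higher. Over all 11431 genes, 2778 were higher and 1196 lower without overlap in KO, and 4123 higher and 2042 lower in HET.

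The size of the changes was bounded for most members. The 95% confidence interval of the log2 change lay within 0.5 of 0, or within 1.41-fold, for 73 of 76 members in KO (96.1%, against 74.4% of all genes) and for 72 in HET (94.7%, against 62.1%). The median log2 change over the members was 0.04 in KO and 0.03 in HET, beside 0.05 and 0.07 over all genes; with library medians aligned it was -0.04 in KO and -0.07 in HET, so its sign turned with the scaling. Quantile normalization gave -0.01 in KO and -0.05 in HET. Rescaling each library to TPM, an equal total in each, moved the median of all genes in HET to 0.22 and that of the members to 0.18. The counts of calls moved with it: after rescaling to TPM 32 members (42.1%) were higher in HET, the same share as of all genes (42.4%), and 8 (10.5%) in KO, against 20.3% of all genes. With library medians aligned 1 member was higher and 8 (10.5%) were lower in HET, against 13.3% and 16.3% of all genes. By role, the median HET change was 0.07 for mitochondria-specific and 0.04 for bacterial-type large-subunit members, and -0.02 for mitochondria-specific and 0.03 for bacterial-type small-subunit members on the deposited scale.

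Mrps6 encodes a small-subunit protein with a bacterial counterpart and lies at chr16:92058336-92112227. It had 44.2, 54.8 and 40.0 FPKM in KO CD62Llo, against 23.9, 27.1 and 25.8 in KO CD62Lhi. In HET it had 52.0, 61.9 and 53.0 FPKM in CD62Llo, against 27.7 and 30.4 in CD62Lhi. Every CD62Llo library was above every CD62Lhi library of either genotype. The log2 change was 0.82 ± 0.11 (SE) in KO, or 1.77-fold, with a limma adjusted p of 0.00136, and 0.91 ± 0.13 in HET, or 1.88-fold, with an adjusted p of 0.000695. The 2 changes differed by -0.09 ± 0.17 on the log2 scale (KO minus HET, adjusted p = 0.927, 95% interval -0.47 to 0.29).

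Mrps6 shares its first exon with Slc5a3, which encodes a sodium-coupled myo-inositol transporter and lies on the same strand. In GENCODE M21 the first exon of Slc5a3 spans chr16:92058322-92058480, inside a first exon of Mrps6 at chr16:92058270-92058480, and the remaining exon of Slc5a3 lies within the first intron of Mrps6. Their RefSeq starts are 14 bases apart. Slc5a3 had 3.29, 2.85 and 3.22 FPKM in KO CD62Llo, against 1.55, 1.37 and 1.74 in KO CD62Lhi. It had 3.08, 4.02 and 4.60 FPKM in HET CD62Llo, against 1.56 and 1.74 in HET CD62Lhi. It rose in both genotypes, like Mrps6, by 0.69 ± 0.12 in KO (log2, adjusted p = 0.00375) and 0.88 ± 0.13 in HET (adjusted p = 0.000995). Reads of the shared exon cannot be told apart. The authors' deposited table of pooled groups lists Mrps6 and Slc5a3 as 1 joint entry, with 59.1 FPKM in KO CD62Llo, 34.3 in KO CD62Lhi, 69.8 in HET CD62Llo and 38.0 in HET CD62Lhi; whether it pools HET CD62Lhi replicate 3 is not stated.

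Mrpl30 encodes a large-subunit protein with a bacterial counterpart and lies at chr1:37890553-37898333. It had 75.6, 78.9 and 76 FPKM in KO CD62Llo, against 89.4, 96.4 and 91.6 in KO CD62Lhi. In HET it had 76.1, 76.3 and 78.1 FPKM in CD62Llo, against 97.9 and 99.8 in CD62Lhi. The fractions did not overlap in either genotype, and the 6 CD62Llo libraries lay between 75.6 and 78.9 FPKM. The log2 change was -0.26 ± 0.04 in KO, or 0.833-fold, with a limma adjusted p of 0.00306, and -0.36 ± 0.05 in HET, or 0.78-fold, with an adjusted p of 0.000521. The difference between those changes was 0.10 ± 0.06 (adjusted p = 0.759). In the authors' deposited table of pooled groups, Mrpl30 had 90.7 FPKM in KO CD62Llo and 115 in KO CD62Lhi, and 89.0 in HET CD62Llo and 120 in HET CD62Lhi. Its opposed neighbour Mitd1, whose product acts in cell division, starts 66 bases away across the A-rich gap printed above. Mitd1 did not pass the threshold, with log2 changes of -0.16 ± 0.08 in KO (adjusted p = 0.235) and -0.16 ± 0.09 in HET (adjusted p = 0.239).

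**Figure D3:**
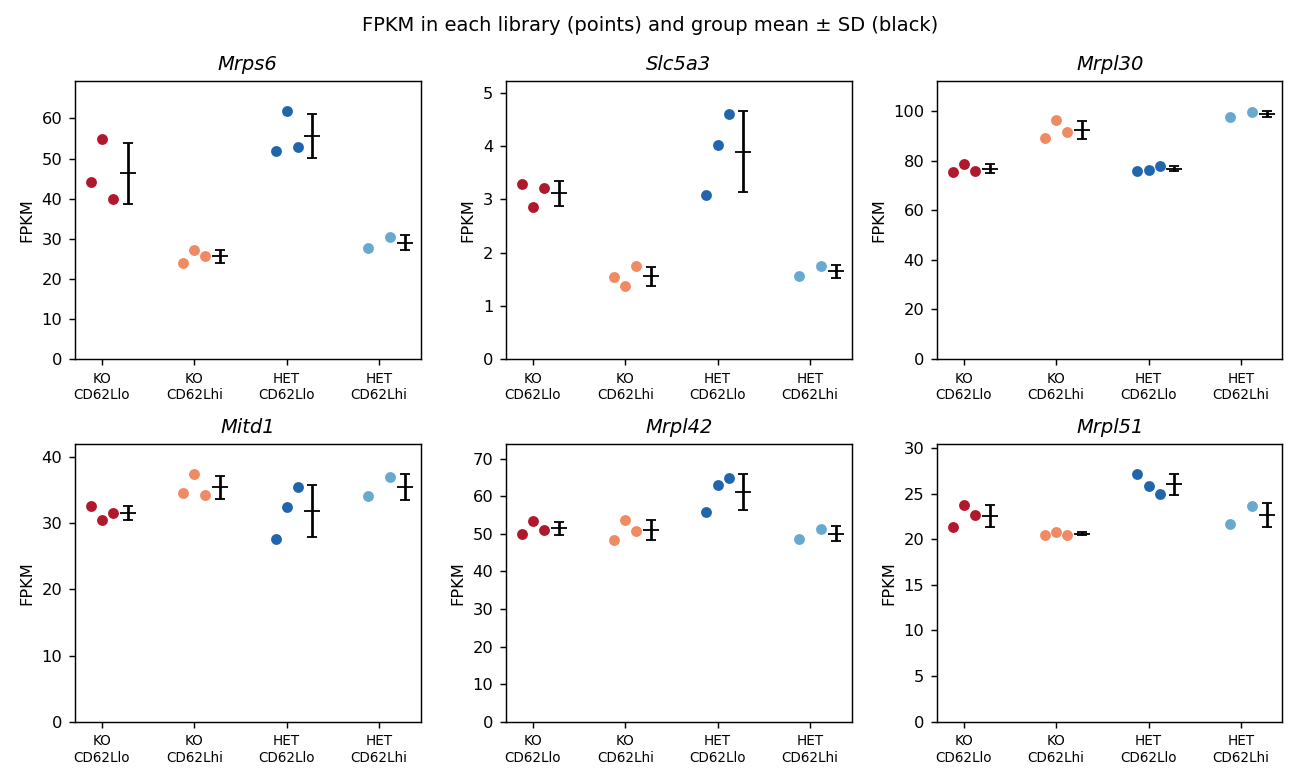
FPKM of Mrps6, its neighbour Slc5a3, Mrpl30, its neighbour Mitd1, Mrpl42 and Mrpl51 in each library (points) of KO CD62Llo, KO CD62Lhi, HET CD62Llo and HET CD62Lhi Tregs; black marks are the group mean and SD. Mrps6 and Slc5a3 are higher in CD62Llo than in CD62Lhi in both genotypes without overlap, Mrpl30 is lower, and Mrpl42 is highest in HET CD62Llo, at 55.7 to 64.8 FPKM.

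Mrpl42, a large-subunit protein found only in mitochondria, had 49.9, 53.4 and 51.1 FPKM in KO CD62Llo, against 48.3, 53.6 and 50.8 in KO CD62Lhi. In HET it had 55.7, 63.1 and 64.8 FPKM in CD62Llo, against 48.6 and 51.4 in CD62Lhi. The HET fractions did not overlap and the KO fractions did. In the authors' pooled groups, Mrpl42 had 61.1 FPKM in KO CD62Llo and 63.7 in KO CD62Lhi. It had 71.6 in HET CD62Llo and 61.3 in HET CD62Lhi there. The log2 change was 0.28 ± 0.07 in HET (limma adjusted p = 0.0176) and 0.02 ± 0.07 in KO (adjusted p = 0.895), and the difference between them was -0.27 ± 0.10 (adjusted p = 0.553), so a difference between genotypes was not shown. The HET call was lost without HET CD62Lhi replicate 1 or 2, without HET CD62Llo replicate 2 or 3, when the HET libraries were fitted alone and when library medians were aligned.

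Mrpl51, also a mitochondria-specific large-subunit protein, had 21.3, 23.7 and 22.6 FPKM in KO CD62Llo, against 20.5, 20.8 and 20.5 in KO CD62Lhi. In HET it had 27.2, 25.8 and 25.0 FPKM in CD62Llo, against 21.7 and 23.6 in CD62Lhi. Fractions did not overlap in either genotype. In the authors' pooled groups, Mrpl51 had 28.5 FPKM in KO CD62Llo and 27.7 in KO CD62Lhi. The pooled HET values lay closer together than those by library, at 32.5 in CD62Llo and 30.9 in CD62Lhi, or 1.05-fold. The log2 change was 0.12 ± 0.05 in KO (limma adjusted p = 0.173) and 0.19 ± 0.06 in HET (adjusted p = 0.0423), with a difference of -0.07 ± 0.08 (adjusted p = 0.88). The HET call was lost in 8 of the 11 fits that left out 1 library, including those without any single KO CD62Lhi library, and under quantile normalization, at 0.10. It was also lost with library medians aligned, at 0.09, and when the HET libraries were fitted alone.

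Mrpl45, a mitochondria-specific protein near the exit of the large subunit, came next in KO. It had 12.9, 15.7 and 12.1 FPKM in KO CD62Llo, against 10.5, 11 and 10.9 in KO CD62Lhi, and 12.4, 13.7 and 13.7 in HET CD62Llo, against 10.3 and 11.6 in HET CD62Lhi. CD62Llo was above CD62Lhi in both genotypes without overlap. The log2 change was 0.29 ± 0.09 in KO (limma adjusted p = 0.0521) and 0.26 ± 0.10 in HET (adjusted p = 0.0838), short of the threshold, and with the replicate number as a block both changes passed it. Mrpl1, the lowest-expressed member but for Mrpl35 and Mrpl17, was at 0.13 ± 0.12 in KO and 0.41 ± 0.14 in HET (adjusted p = 0.543 and 0.0514). In HET it passed with a pseudocount of 0.1 or 0.5 (0.48, adjusted p = 0.0466, and 0.44, adjusted p = 0.0492), with library weights, from interval middles, after rescaling to TPM, and without HET CD62Llo replicate 2 or KO CD62Llo replicate 3.

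KO and HET share no library in these comparisons, but their same-numbered CD62Llo libraries deviated together (correlations of 0.148 to 0.165). The changes in KO and HET are thus not independent, and they were set side by side over all 76 members. The matching share of signs over all genes was not computed. The sign was the same for 54 members, of which 37 were higher and 17 lower in CD62Llo. Spearman's rho was 0.48, and 0.44 over the 74 members without Mrps6 and Mrpl30, as a description over genes that share libraries and depth. No member passed the test of the difference between the KO and HET changes, where 0.00875% of all genes did, and 4 members had an unadjusted p under 0.05, against 7.59% of all genes. The 95% interval of that difference lay within 0.5 of 0 for 68 of 76 members (89.5%, against 65.5% of all genes). The farthest apart were Mrps18c, a small-subunit protein, at -0.36 ± 0.14 (KO minus HET, limma adjusted p = 0.593), then Mrpl1 at -0.28 ± 0.18 (adjusted p = 0.754) and Mrps5 at 0.27 ± 0.23 (adjusted p = 0.822).

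**Figure D4:**
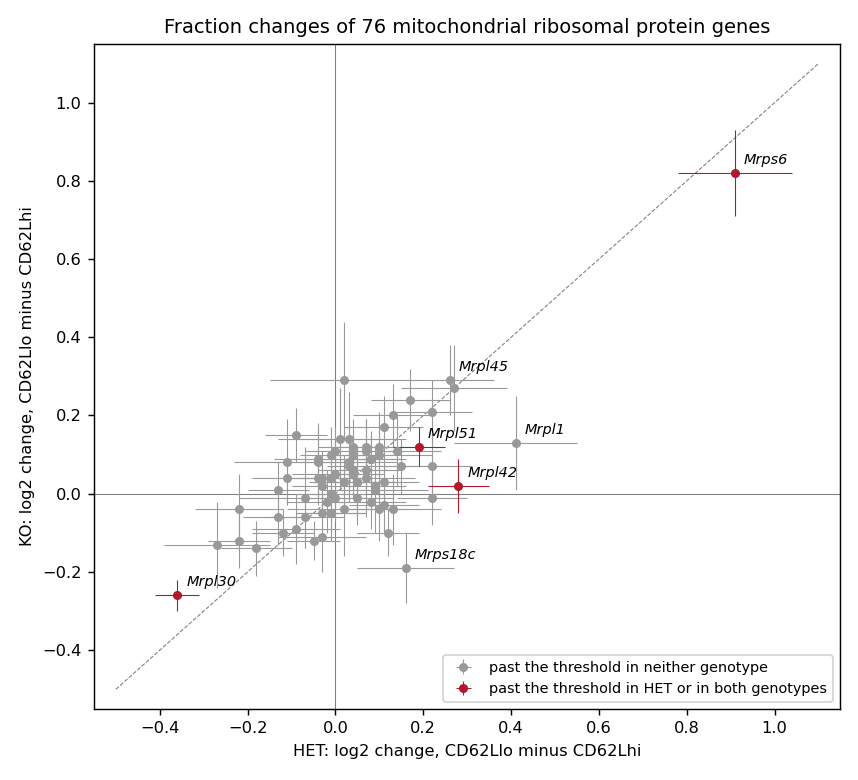
Log2 change of the 76 members between CD62Llo and CD62Lhi Tregs in HET (horizontal) and in KO (vertical); bars are SEs, red points passed the threshold in HET or in both genotypes, and the dashed line marks equal changes. Mrps6 lies alone at 0.91 and 0.82, Mrpl30 at -0.36 and -0.26, and most members cluster around 0.

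KO Tregs were compared with HET Tregs within each fraction, which asks what the loss of the second Ezh2 allele does to these genes. In CD62Llo Tregs, 0 of 76 members passed the threshold in either direction, against 4.6% of all genes, 1.36% higher and 3.25% lower. This fit did not pair the same-numbered libraries. At an unadjusted p under 0.05, 11 members passed (14.5%, against 18.9%). The libraries did not overlap for 8 members, all lower in KO. The background was 20.2% in both directions together, with 1563 lower and 749 higher of 11431 genes. The sign was negative for 57 of 76 members (75.0%), against 58.4% of all genes. It was negative for 68.9% of nuclear oxidative phosphorylation genes and 9.64% of cytosolic ribosomal protein genes. The median log2 change was -0.03 over members and over all genes, and it was 0.01 over members with library medians aligned. The interval lay within 0.5 of 0 for 75 of 76 members (98.7%, against 79.7%).

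Mrpl42 and Mrpl51, whose values by library are given above, were the members with the smallest p. Mrpl42 was lower in every KO CD62Llo library than in every HET CD62Llo library, with a log2 difference of -0.24 ± 0.07 (limma adjusted p = 0.0766). With the replicate number as a block it was the 1 member past the threshold, against 230 higher and 525 lower of all 11431 tested genes. Mrpl51 differed by -0.20 ± 0.05 (adjusted p = 0.0766), also without overlap. Mrps18c had 43.9, 43.1 and 47.2 FPKM in KO CD62Llo, against 47.4, 56.2 and 56.8 in HET CD62Llo, a log2 difference of -0.25 ± 0.09 (adjusted p = 0.193). Mrps6 differed by -0.27 ± 0.11 (adjusted p = 0.242), with overlap, and by -0.39 without KO CD62Llo replicate 2, where it passed the threshold.

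In CD62Lhi Tregs no member passed the threshold, and neither did any other gene (0%), with 2 HET libraries. At an unadjusted p under 0.05, 3 members passed, against 2.87% of all genes. The sign was negative for 64 of 76 members (84.2%), against 58.3% of all genes. It was also negative for 78.4% of nuclear oxidative phosphorylation genes and 94.0% of cytosolic ribosomal protein genes. The median was -0.06, against -0.02 over all genes, and -0.07 and -0.09 over those lists in that order. With library medians aligned the members' median was -0.04. The libraries did not overlap for 16 members, of which 14 were lower in KO. The background was 22.2% in both directions together, with 1644 lower and 895 higher of 11431 genes. The 3 largest of those differences were in Mrpl1, with 4.74, 5.37 and 5.86 FPKM in KO against 4.43 and 3.83 in HET (0.30 ± 0.14), in Mrpl52 (-0.28 ± 0.11) and in Mrpl34 (-0.22 ± 0.08), each with an adjusted p of 1.0. The interval lay within 0.5 of 0 for 74 members (97.4%, against 85.1%).

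None of 7 members named for known roles passed the threshold in any comparison on the deposited scale; in HET, Mrps22 and Mrps34 were lower with library medians aligned, and Mrpl11, Mrpl44 and Mrps16 were higher after rescaling to TPM. Mrpl12, a stalk protein that is also reported to bind mitochondrial RNA polymerase, averaged 51.5 ± 2.70 FPKM in KO CD62Llo, 50.1 ± 3.39 in KO CD62Lhi, 53.8 ± 2.27 in HET CD62Llo (SD, n = 3 each) and 55.3 ± 3.82 in HET CD62Lhi (n = 2). Mrpl44, which when mutated in humans causes a cardiomyopathy, averaged 19.8 ± 2.23 FPKM in KO CD62Llo, 16.9 ± 1.2 in KO CD62Lhi, 20.1 ± 1.33 in HET CD62Llo and 17.1 ± 0.566 in HET CD62Lhi. It had log2 fraction changes of 0.21 ± 0.08 in KO (limma adjusted p = 0.121) and 0.22 ± 0.09 in HET (adjusted p = 0.116), above the members' 90th percentile of 0.16 in KO and 0.20 in HET. Mrps22, a mitochondria-specific small-subunit protein, averaged 8.88 ± 0.459 FPKM in KO CD62Llo, 9.63 ± 0.615 in KO CD62Lhi, 10.1 ± 0.503 in HET CD62Llo and 11.1 ± 0.617 in HET CD62Lhi. The KO minus HET difference on the log2 scale was -0.17 ± 0.06 in CD62Llo (adjusted p = 0.177) and -0.19 ± 0.07 in CD62Lhi (adjusted p = 1.0), where the members' 10th percentile was -0.15. For Mrpl11, Mrps12, Mrps16 and Mrps34 the fraction and genotype differences lay between -0.17 and 0.11 on the log2 scale, and none passed the threshold.

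Opposed and overlapping neighbours were looked up in GENCODE M21, where all 76 members were found on the chromosome the files give. Of them, 18 had a head-to-head protein-coding partner, with opposed starts within 1000 bases that overlapped by at most 100 bases. A further count, which can include the same members, found 26 that overlapped a protein-coding gene. The 18 leave out opposed pairs listed only as overlapping, such as Mrpl46 with Mrps11 and Mrpl18 with Tcp1. Use of strand in counting is not stated, so reads in an overlap cannot be assigned to either gene with certainty. The RefSeq starts of Mrpl46 and Mrps11, a large-subunit and a small-subunit gene, stand back to back around the 41-base gap printed above. In GENCODE M21 these genes overlap on opposite strands, so the limit on reads in an overlap holds for them too. Mrpl46 had 17.1, 20.8 and 20.5 FPKM in KO CD62Llo against 19.8, 20 and 19 in KO CD62Lhi, and 22.4, 21.5 and 22.1 in HET CD62Llo against 19.5 and 18.2 in HET CD62Lhi. Mrps11 had 15.2, 18.3 and 14.7 FPKM in KO CD62Llo against 16.0, 14.4 and 15 in KO CD62Lhi, and 17.2, 14.5 and 14.4 in HET CD62Llo against 15.3 and 16.2 in HET CD62Lhi. The HET change was 0.22 ± 0.08 for Mrpl46 (limma adjusted p = 0.0697) and -0.04 for Mrps11 (adjusted p = 0.808), and neither passed.

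Of the 37 tested partners that are not members themselves, 6 rose and 3 fell in HET (24.3%, against 27.7% of all genes), and 2 rose and none fell in KO (5.41%, against 16.2%). Mtbp, which overlaps Mrpl13 on the other strand, rose by 0.71 in HET (log2, limma adjusted p = 4.81e-05) and 0.47 in KO (adjusted p = 0.000487), beside 0.27 ± 0.12 in HET and 0.27 ± 0.11 in KO for Mrpl13 (adjusted p = 0.119 and 0.123). Wdfy1, which overlaps Mrpl44, rose by 0.81 in HET (adjusted p = 0.00597) and was at 0.38 in KO (adjusted p = 0.125). Fau, whose product includes a cytosolic ribosomal protein and whose start is 59 bases from that of Mrpl49, fell by 0.52 in HET (adjusted p = 0.0186) and was at -0.20 in KO (adjusted p = 0.324), beside -0.02 for Mrpl49 in both. Ncapd2, a condensin subunit gene opposed to Mrpl51 at 100 bases, was at 0.20 in KO and 0.22 in HET (adjusted p = 0.152 and 0.117). The annotation also holds 5 processed pseudogenes of members, of Mrpl23, Mrpl48 and Mrps36, which could share reads with them.

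Other genes that make or use the mitoribosome were counted from lists, given with the same test; over all genes 11.9% rose and 4.26% fell in KO, and 18.8% rose and 8.88% fell in HET. The 7 mitoribosome proteins with other names, among them Dap3, had no call in any comparison. Of 18 assembly and ribosomal RNA modification genes, 1 rose and 2 fell in KO CD62Llo against CD62Lhi, and 3 (16.7%) rose and 2 (11.1%) fell in HET. Ddx28, an RNA helicase of large-subunit assembly, had 6.92, 8.38 and 8.36 FPKM in KO CD62Llo against 5.84, 5.98 and 5.79 in KO CD62Lhi, and 10, 11.1 and 9.67 in HET CD62Llo against 6.80 and 6.19 in HET CD62Lhi. It rose in both genotypes (log2 0.37 ± 0.08 in KO, limma adjusted p = 0.0112, and 0.59 ± 0.09 in HET, adjusted p = 0.001) and was lower in KO than in HET CD62Llo Tregs (-0.34 ± 0.08, adjusted p = 0.0391). Rbfa, a small-subunit maturation factor, fell in both, with log2 changes of -0.33 ± 0.08 in KO (adjusted p = 0.0211) and -0.44 ± 0.09 in HET (adjusted p = 0.00567).

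Of 14 translation factors and related genes, among them Lrpprc and Slirp, none passed in KO and 5 (35.7%) rose in HET. Mtif2, the initiation factor, rose by 0.34 ± 0.07 (limma adjusted p = 0.00648), and Mrrf, Mtrf1, Guf1 and Slirp by 0.30 to 0.44. Mtrf1 was near the filter of 1 FPKM, with means of 1.94 FPKM in HET CD62Llo and 1.16 in HET CD62Lhi. None of the 14 passed the test of the difference between genotypes' changes. Of 17 mitochondrial aminoacyl-tRNA synthetases, 1 rose and 2 fell in KO, and 1 rose and 1 fell in HET. Fars2 rose and Mars2 fell in both genotypes, and Mars2, which charges the methionine tRNA, was higher in KO than in HET CD62Llo Tregs, with 7.18, 6.83 and 6.51 FPKM against 5.44, 5.20 and 5.11 (0.33 ± 0.05, adjusted p = 0.0096). Lars2, which charges the leucine tRNA, differed by replicate number: it had 145 FPKM in replicate 3 of KO CD62Llo, 204 in that of KO CD62Lhi and 198 in that of HET CD62Llo, against 32.0 to 57.3 in the other 8 libraries, and it passed no test. Of 10 transcription and genome maintenance genes, Tfb2m rose in both genotypes, and Tefm and Mgme1 rose and Polg fell in HET. Of 18 import genes, Timm17b rose in KO (0.41 ± 0.10, adjusted p = 0.0174) and none passed in HET.

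Regulators of mitochondrial gene expression were on a list of 10, of which 8 were tested; Ppargc1a, at 0.0304 to 0.0675 FPKM, was below the filter. None of the 8 passed in KO, and 1 rose (12.5%) and 2 fell (25.0%) in HET. Nrf1 had 15.2 to 17.9 FPKM in KO CD62Llo, 15.6 to 18.6 in KO CD62Lhi, 18.0 to 19.4 in HET CD62Llo and 17.2 and 18.2 in HET CD62Lhi, and passed no test. Gabpa also passed none, and Gabpb1, its partner subunit, rose in HET CD62Llo (0.29 ± 0.06, limma adjusted p = 0.00768). Myc, a transcription factor that drives cell growth, had 57.6, 57.8 and 67.3 FPKM in KO CD62Llo against 68.8, 72.1 and 70.2 in KO CD62Lhi, and 46.6, 43.8 and 52.3 in HET CD62Llo against 71.1 and 70.9 in HET CD62Lhi. It fell in HET CD62Llo (-0.57 ± 0.09, adjusted p = 0.00103) and was higher in KO than in HET CD62Llo Tregs (0.35 ± 0.08, adjusted p = 0.0342). Pprc1, a coactivator related to Ppargc1a, fell in HET CD62Llo (-0.30 ± 0.09, adjusted p = 0.0394), with 15.6, 14.4 and 14.9 FPKM against 20.4 and 17.0 in HET CD62Lhi, and was at -0.18 in KO (adjusted p = 0.193).

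Counts for 2 other gene groups were set beside those of the members. Of 74 tested nuclear oxidative phosphorylation genes, 3 rose and 1 fell in KO CD62Llo against CD62Lhi and 2 rose and 2 fell in HET, with medians of 0.04 and -0.01. Of 83 tested cytosolic ribosomal protein genes, 45 (54.2%) fell and none rose in KO (median -0.24), and 71 (85.5%) fell and 1 rose in HET (median -0.41). The difference between the lists was not tested. No symbol of a gene encoded by mitochondrial DNA was found in the files, so the messages that the mitoribosome translates were not analysed here.

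**Figure D5:**
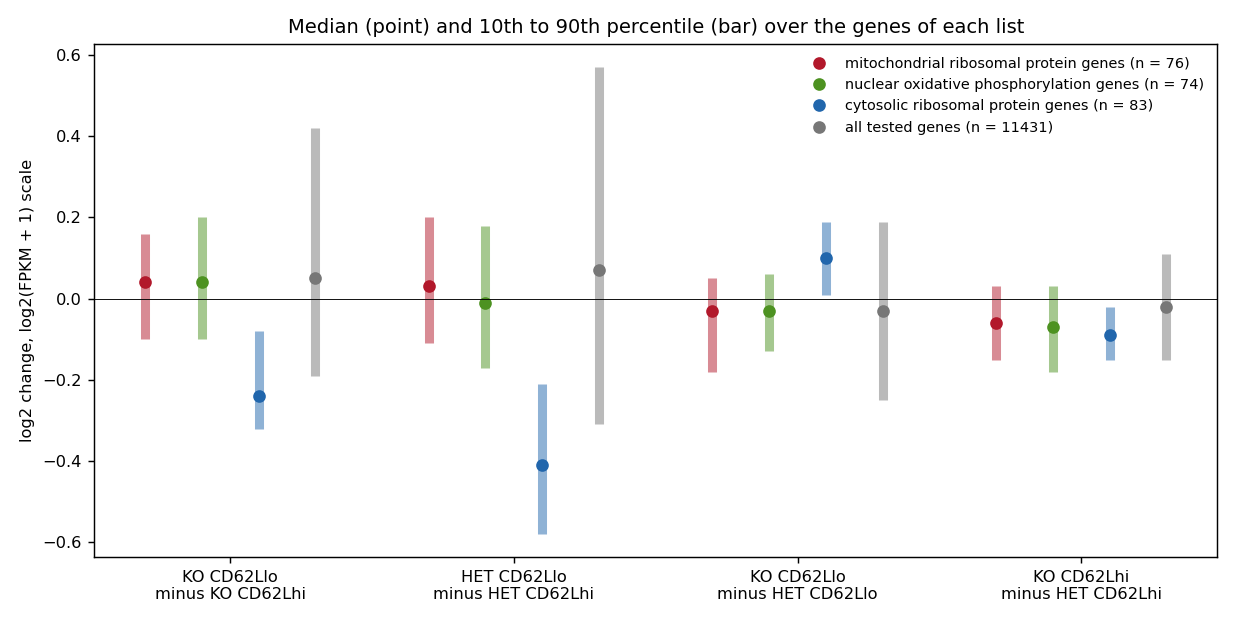
Median (point) and 10th to 90th percentile (bar) of the log2 change over the tested genes of each list, for CD62Llo minus CD62Lhi in KO and in HET, and for KO minus HET in CD62Llo and in CD62Lhi. The mitochondrial ribosomal protein genes center near 0 in each comparison, from -0.06 to 0.04, while the cytosolic ones center at -0.24 in KO and -0.41 in HET between fractions.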

How the data were processed

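Poly(A) RNA of 12 libraries was sequenced as single-end reads on an Illumina HiSeq 2500, per the labels' protocols. The submitters' processing notes name CASAVA 1.8.2, FastQC, TopHat, Cufflinks 2.1.1 and mouse build mm10. The authors deposited FPKM per gene and library, with a confidence interval beside each value, and a table of FPKM for pooled groups. Most members' FPKM exceeds that interval in every fitted library but KO CD62Llo replicate 1. Read depth is unknown, and the interval's median relative half-width over members was 7.53% to 14.2% by library. The precision is thus that of the spread between libraries.

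Values of a symbol listed more than once were summed. log2(FPKM + 1), which understates the change of low genes, was fitted with limma 3.58.1 (R 4.3.3) to 4 group means over 11 libraries, with a trended moderated variance. The 11431 symbols with at least 1 FPKM in 2 or more libraries were tested, two-sided, and p-values were adjusted by Benjamini-Hochberg over all of them. The fit was also run on simulated data, whose outcome is not reported here. Their noise was independent between libraries, so they do not cover shared deviations of same-numbered libraries or shifts with scaling. Sequences came from RefSeq tables and neighbours from GENCODE M21. Labels do not say that libraries of a group are separate animals, so p-values measure the spread between these samples, which may be technical.

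The members and gene lists were chosen with earlier results of these data known. Members are named in full when they passed the threshold, had the 3 largest differences without overlap in a comparison, had the 3 highest or lowest levels, or were on a fixed list of 7 with known roles; Mrpl46, Mrps11 and neighbours were chosen after their values were seen. Same-numbered libraries of KO and HET CD62Llo Tregs deviated together (correlations of 0.165, 0.153 and 0.148), which pairs them. In the KO fractions the correlations were 0.131, 0.068 and 0.178, of which one is under the 0.1 set for pairing, although 1 gene, Lars2, was high in replicate 3 of both. One marker gene is not reported here.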

Additional observations from a re-analysis of the deposited data

Results flagged for a closer look

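HET CD62Lhi replicate 3, left out of the fits for its low read count, had a summed FPKM of 7413 over the members, above 2646 and 2729 in the other HET CD62Lhi libraries, while 5 of the 76 members had a value above 0 in it. It was flagged by rule as a high value in a library that the comparisons do not use. In that library 589 of 23846 entries were above 0, so the sum rests on those 5 members and does not describe the 76.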

How the results depend on the processing

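Mrps6 rose and Mrpl30 fell in CD62Llo Tregs of both genotypes under every alternative except the fit of all 12 libraries, which called 0 members. The count of higher members in HET CD62Llo against CD62Lhi, 3, was 4 with a pseudocount of 0.1 or 0.5, 1 with medians aligned, 7 with library weights, 1 in HET libraries alone, 5 from interval middles, 32 after rescaling to TPM (42.1%, beside 42.4% of all genes) and 1 to 4 with 1 library left out; 1 lone HET CD62Lhi library is then assumed to vary like the others. The lower count, 1, was 5 by quantiles, 8 with medians aligned, 3 with weights and 1 to 3 with 1 library left out; it was 3 without HET CD62Llo replicate 1 and 2 without KO CD62Lhi replicate 3. In KO the higher count, 1, was 2 with a pseudocount of 0.1, a 5 FPKM filter, weights or interval middles, 8 after rescaling, and 1 to 2 with 1 library left out (2 without either HET CD62Lhi library or without KO CD62Llo replicate 1 or 3); the lower count, 1, was 4 with medians aligned. For KO against HET CD62Llo the lower count, 0, was 1 after rescaling and 0 to 2 with 1 library left out (2 without HET CD62Llo replicate 1, 1 without KO CD62Llo replicate 2). Shares of all genes moved too. In HET, lower calls by quantiles took 14.3% of all genes and 6.58% of members. With medians aligned they took 16.3% and 10.5%. Library weights called 2661 genes higher and 1300 lower of 11431 in HET. By quantiles 2 members (2.63%) were higher in HET, against 12.5% of all genes. In KO, rescaling called 20.3% of all genes higher, against 10.5% of members. Medians aligned called 8.63% lower in KO, against 5.26% of members. The cause was not tested.

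With the replicate number as a block, the count of higher members in the KO fractions was 2 (Mrpl45 joined), beside 1675 of all 11431 genes. In the HET fractions it was 4 (Mrpl45 joined there too), beside 2505 of all genes. The count of lower members in KO against HET CD62Llo was 1 (Mrpl42), beside 525 of all genes. The block lost no call. Interval middles and rescaling were chosen after seeing the data. The depth of the libraries is unknown, and 2 HET CD62Lhi libraries limit the genotype comparison there.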
